A study of Homo sapiens with 4 samples.

Results

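Glycolysis and hypoxia response genes were read out in 2 human breast cancer cell lines whose TMEM126A level had been altered. The set holds 36 genes, chosen by name, of the 39261 genes in the deposited tables. It comprises 17 glycolytic enzymes, 7 genes for transport and regulation of glycolysis, and 12 genes made up of HIF1A and other targets of the hypoxia-inducible factors (HIF). All 36 were found in the tables, and 35 had a read in at least 1 library. In MDA-MB-231, a triple-negative line of mesenchymal character, a TMEM126A knockdown culture was set against a culture with the control vector sh-NC. In MCF10-Ca1a (Ca1a), a malignant line derived from mammary epithelial MCF10A cells, a TMEM126A overexpression culture was set against a culture with the control vector pCDH. All constructs were brought in by lentivirus. MDA-MB-231 grew in L15 medium with fetal bovine serum, and Ca1a grew in DMEM/F12 with horse serum, insulin, EGF, cholera toxin and hydrocortisone. L15 is formulated with galactose in place of glucose. Whether a culture came from a single clone is not stated in the labels, and neither is the oxygen level. Each of the 4 groups held 1 library, so differences have no replicate check and were not tested here.

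Glycolysis splits glucose into pyruvate in the cytosol, and lactate dehydrogenase turns pyruvate into lactate that leaves the cell through monocarboxylate transporters. HIF1A is the oxygen-regulated subunit of the transcription factor HIF-1. With oxygen present, the EGLN prolyl hydroxylases mark it for destruction. With little oxygen it accumulates and raises transcription of glycolytic enzymes, glucose transporters and genes of angiogenesis, pH control and mitophagy. HIF1A is regulated largely at the protein level, which these RNA data do not measure. TMEM126A is an inner mitochondrial membrane protein needed for assembly of respiratory complex I.

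HIF-1 binds the 5 letters ACGTG or GCGTG, the core of the hypoxia response element, and the promoters of the set were searched for both words and for their reverse complements CACGT and CACGC. The palindrome CACGTG counts as a match on each strand. RefSeq promoters on GRCh38.p14 were matched by symbol for 31 of the 36 genes. At least 1 word lay within 250 bases before the start in 34 of their 58 promoters (58.6%), against 43.2% of the 35116 promoters of the table. ACGTG or CACGT lay in 37.9% of the promoters of the set and in 18.5% of all promoters. By gene, 26 of 31 (83.9%) had a promoter with at least 1 word, against 47.4% of all 27305 genes in the table. The set had more promoters per gene (58 for 31 genes) than the table (35116 for 27305), which raises its share by gene. Genes of the set were in part chosen as known HIF targets, and a match is a description of letters, not a site. The runs below belong to genes described in the results that follow, none of which passed the threshold for a call in the knockdown or with overexpression. HK2 is a hexokinase that was slightly lower in the knockdown and slightly higher with overexpression. BNIP3 is a mitophagy receptor that differed nearly 3-fold between the lines. SLC16A3 is the lactate exporter that moved in opposite directions in the 2 lines. PGK1 is the phosphoglycerate kinase that was level in the knockdown and higher with overexpression. Each run is the stretch before the transcript start that is free of annotated exons, 5′ to 3′ on the strand of the gene, and capitals mark the words searched. HK2 has 2 promoters in the table and SLC16A3 has 5, and the one shown was chosen, with the matches known, as the one with the most matches in such a stretch. Of the 5 promoters of SLC16A3, 2 hold no match. HK2 is read from the plus strand (chr2:74834920-74835169), bases -250 to -1 from the start, and holds 6 matches.
HK2: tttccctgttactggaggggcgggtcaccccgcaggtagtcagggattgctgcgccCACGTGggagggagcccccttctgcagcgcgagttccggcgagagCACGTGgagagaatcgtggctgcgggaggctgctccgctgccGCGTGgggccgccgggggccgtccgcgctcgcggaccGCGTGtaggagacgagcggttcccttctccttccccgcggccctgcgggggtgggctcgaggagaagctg
BNIP3 is read from the minus strand (chr10:131982014-131982173), bases -250 to -91, and holds 6 matches in 160 bases.
BNIP3: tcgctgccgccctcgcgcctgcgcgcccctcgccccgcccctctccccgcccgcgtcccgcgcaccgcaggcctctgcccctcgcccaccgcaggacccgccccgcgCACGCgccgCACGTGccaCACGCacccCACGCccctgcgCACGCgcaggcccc
SLC16A3 is read from the plus strand (chr17:82228792-82229031), bases -250 to -11, and holds 2 matches.
SLC16A3: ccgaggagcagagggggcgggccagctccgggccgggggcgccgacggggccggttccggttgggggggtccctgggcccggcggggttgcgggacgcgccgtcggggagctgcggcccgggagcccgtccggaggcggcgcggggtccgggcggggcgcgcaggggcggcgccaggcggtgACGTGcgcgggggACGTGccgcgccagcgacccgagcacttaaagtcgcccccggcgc
PGK1 is read from the plus strand (chrX:78103998-78104173), bases -250 to -75, and holds 3 matches.
PGK1: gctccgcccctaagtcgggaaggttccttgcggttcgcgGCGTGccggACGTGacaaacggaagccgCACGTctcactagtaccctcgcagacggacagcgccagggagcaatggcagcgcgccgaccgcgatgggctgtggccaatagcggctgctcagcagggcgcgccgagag

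Library totals were 21405193 reads for the knockdown, 20673373 for its control, 21359273 for the overexpression and 21302171 for its control. TMEM126A had 22.9 normalized counts in the knockdown and 559 in its control, 24.5-fold lower (95% counting interval 16.1 to 38.9). With overexpression it had 9381 counts against 265 in the control, 35.4-fold higher (31.3 to 40.1). The targeted gene therefore lay on the labelled side in both lines. Mesenchymal markers summed to 759 FPKM in the knockdown, 770 in its control, 76.3 with overexpression and 91.9 in its control, and nearly all of this was VIM. Epithelial markers summed to 574 FPKM in the knockdown and 475 in its control, and to 1975 with overexpression and 1846 in its control. KRT19 alone of the 7 was higher in MDA-MB-231, at 220 FPKM in the knockdown and 163 in its control, against 1.04 in the Ca1a control. EPCAM, CDH1 and KRT17 had 3.10, 0.203 and 0.946 FPKM in the MDA-MB-231 control and 131, 73.6 and 650 in the Ca1a control. Endothelial and fibroblast markers summed to less than 3 FPKM in every library, and CD68 made up most of the immune marker sum. The part of these markers in the differences below was not tested.

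Levels are given in FPKM (fragments per kilobase of transcript, scaled to the size of the library), the unit in which genes can be set side by side. Some glycolytic enzymes were among the most abundant transcripts of both lines, and others were far lower. HK2 stood at rank 5255 in the MDA-MB-231 control and 3417 in the Ca1a control. ALDOC stood at rank 10413 in the MDA-MB-231 control and ENO2 at rank 12593 in the Ca1a control. The FPKM of all enzymes of the set summed to 3870 in the knockdown and 3604 in its control, and to 4622 with overexpression and 4087 in its control. As a share of all FPKM this was 1.28% in the knockdown and 1.21% in its control, and 1.48% with overexpression and 1.31% in its control. GAPDH, the glyceraldehyde phosphate dehydrogenase often used as a reference transcript, stood at rank 8 of all genes in the MDA-MB-231 control and rank 12 in the Ca1a control. Its level was 1579 FPKM in the knockdown and 1392 in its control, and 2041 with overexpression and 1777 in its control. The transport and regulation genes summed to 216 FPKM in the knockdown, 199 in its control, 239 with overexpression and 261 in its control. HIF1A and the other HIF targets summed to 286 FPKM in the knockdown and 281 in its control, and to 271 with overexpression and 293 in its control. Summed levels of the enzymes were thus higher in both manipulated cultures than in their controls. Such sums are dominated by the most abundant enzymes. In the knockdown the rise lay mostly in GAPDH, ENO1 (457 FPKM against 417 in its control) and PKM (406 against 369). By counts, 7 of 17 enzymes were higher in the knockdown beyond counting error (41.2%), 4 lower (23.5%) and 6 within it. Over all genes the shares were 16.8% and 11.3%, and among genes averaging at least 1000 normalized counts 25.3% and 16.2%. The median log2 ratio of the enzymes was -0.02.

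**Figure D1:**
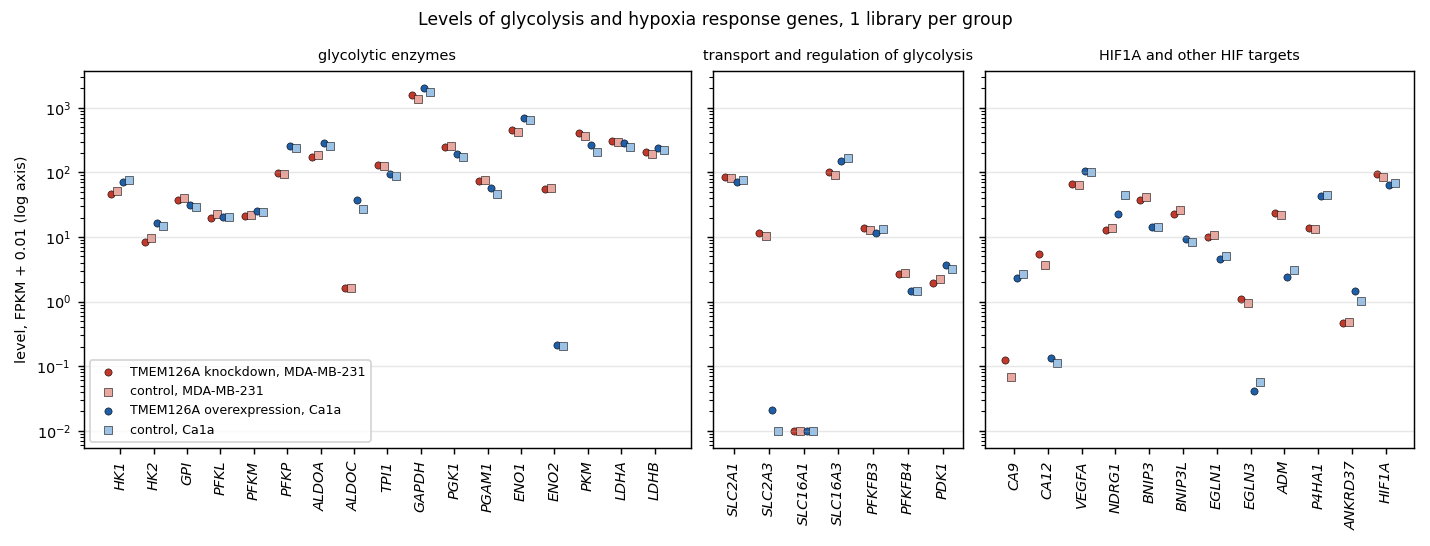
Level of each gene in FPKM plus 0.01 on a log axis, in panels by role, with 1 point per library (red circles, TMEM126A knockdown; pale red squares, MDA-MB-231 control; blue circles, TMEM126A overexpression; pale blue squares, Ca1a control). Libraries of the same line lie close together for most genes, while ENO2, ALDOC, SLC2A3, CA9 and CA12 are far apart between lines, and SLC16A1 is listed at 0 in all 4 libraries.

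GAPDH and ENO1 led the order of enzyme levels in both controls. In the MDA-MB-231 control ENO1 had 417 FPKM, followed by PKM at 369 and LDHA at 299. In the Ca1a control ENO1 had 638 FPKM, followed by ALDOA at 258, LDHA at 249 and PFKP at 242, which lay close together. ENO1 is the ubiquitous enolase, PKM the pyruvate kinase of proliferating cells and muscle, and LDHA the lactate dehydrogenase subunit typical of muscle. The lowest enzyme was ALDOC at 1.62 FPKM in the MDA-MB-231 control and ENO2 at 0.197 FPKM in the Ca1a control.

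The choice of paralog within an enzyme family separated the lines in several steps. Among phosphofructokinases, which commit sugar to glycolysis, the platelet form PFKP took 70.4% of the family FPKM in the knockdown and 67.9% in its control, and 85.0% with overexpression and 84.5% in its control. The liver form PFKL took 16.4% in the MDA-MB-231 control and 7.15% in the Ca1a control. PFKP alone differed 2.59-fold in level, at 93.7 FPKM in the MDA-MB-231 control and 242 in the Ca1a control, while PFKL and the muscle form PFKM each differed by at most 1.11-fold between the controls. ENO2, the enolase first described in neurons, made up 10.8% of enolase FPKM in the knockdown and 12.1% in its control, and 0.0285% with overexpression and 0.0309% in its control. Brain-type aldolase ALDOC showed the opposite layout, with 0.900% of aldolase FPKM in the knockdown and 0.877% in its control, and 11.4% with overexpression and 9.36% in its control. Hexokinase was mostly HK1 in every library, at 84.7% in the knockdown, 84.1% in its control, 81.4% with overexpression and 83.5% in its control. LDHA took 59.3% of lactate dehydrogenase FPKM in the knockdown, 60.8% in its control, 54.4% with overexpression and 53.2% in its control. Gene-level values do not separate the splice forms of PKM.

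**Figure D2:**
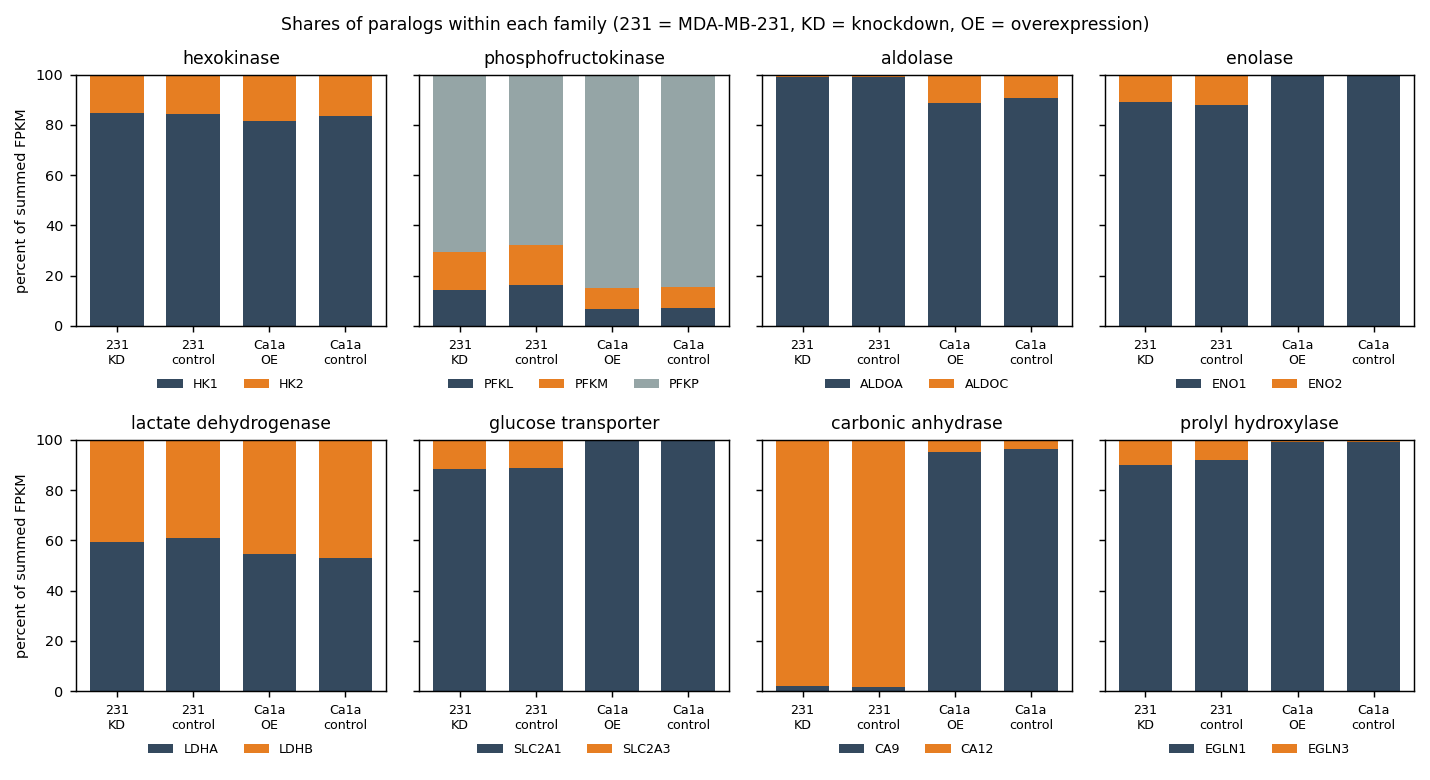
Share of each paralog in the summed FPKM of its family, in percent, as stacked bars for the 4 libraries (1 library per bar). The bars of a line resemble each other, and the carbonic anhydrase, phosphofructokinase, enolase, glucose transporter and aldolase panels differ most between lines. CA12 stands at 97.9% and 98.4% in MDA-MB-231 knockdown and control and at 5.02% and 3.60% in Ca1a overexpression and control.

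The MDA-MB-231 control was then set against the Ca1a control, gene by gene, on log2(FPKM + 0.1), with a call at 2-fold or more where the higher library reached 1 FPKM. Cell line, medium and vector cannot be told apart in this comparison. Of 34 genes past the filter, 7 were called higher in MDA-MB-231 and 5 lower, which is 20.6% and 14.7%. Over all 12101 genes past the filter the shares were 26.8% and 13.6%, and the shares of the set lay near these. The median log2 ratio was -0.15 for the enzymes, 0.04 for transport and regulation and 0.30 for HIF1A and HIF targets, beside 0.31 for all genes. Among enzymes, ENO2 was called higher at 57.4 FPKM in the MDA-MB-231 control and 0.197 in the Ca1a control, and PFKP and ALDOC were called lower. ALDOC had 1.62 FPKM in the MDA-MB-231 control and 26.6 in the Ca1a control, 16.4-fold higher in Ca1a. Of the transport genes, SLC2A3, the high-affinity glucose transporter of neurons, had 912 reads in the MDA-MB-231 control and 0 in the Ca1a control. With a limit of 3 reads put in place of 0 in the Ca1a library it was 313-fold higher in MDA-MB-231. The 95% counting interval of the ratio began at 254. SLC2A1, the widespread glucose transporter, lay at 81.3 FPKM in the MDA-MB-231 control and 75.5 in the Ca1a control, and so hardly differed between lines.

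HIF targets split in both directions between the lines. CA12, a plasma membrane carbonic anhydrase that helps set extracellular pH, had 3.67 FPKM in the MDA-MB-231 control and 0.101 in the Ca1a control, 36.4-fold higher in MDA-MB-231. CA9, the hypoxia-inducible carbonic anhydrase, had 0.0586 FPKM in the MDA-MB-231 control and 2.70 in the Ca1a control, and rested on 3 reads in the MDA-MB-231 control. By reads over the library total it was 34.6-fold higher in Ca1a (95% counting interval 11.5 to 170.5). Of CA9 and CA12, CA12 was thus the higher in MDA-MB-231 and CA9 the higher in Ca1a, both at low levels. ADM, which encodes the vasodilator adrenomedullin, was 7.04-fold higher in MDA-MB-231, at 21.6 FPKM in its control against 3.07 in the Ca1a control. The mitophagy receptor BNIP3 had 41.5 FPKM in the MDA-MB-231 control and 14.4 in the Ca1a control. Its relative BNIP3L had 26.2 FPKM in the MDA-MB-231 control and 8.38 in the Ca1a control, so both receptors were higher in MDA-MB-231. EGLN1, the main prolyl hydroxylase acting on HIF1A, lay at 10.6 FPKM in the MDA-MB-231 control and 5.13 in the Ca1a control. Lower in MDA-MB-231 were NDRG1, a stress-responsive growth suppressor, at 14.0 FPKM in its control against 43.9 in the Ca1a control, and P4HA1, a catalytic subunit of collagen prolyl hydroxylase, at 13.4 FPKM in its control against 44.7 in the Ca1a control. HIF1A itself differed little, at 83.9 FPKM in the MDA-MB-231 control and 67.9 in the Ca1a control. VEGFA, the angiogenic growth factor, was at 64.4 FPKM in the MDA-MB-231 control and 101 in the Ca1a control, below the 2-fold threshold. EGLN3 stayed under 1 FPKM in both controls, at 0.924 in the MDA-MB-231 control and 0.0475 in the Ca1a control.

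Knockdown of TMEM126A in MDA-MB-231 went with small differences in this set, upward in 13 genes and downward in 8 by the counting interval alone, and with 1 gene past the size threshold. A gene was called where its ratio of normalized counts was at least 25% above 1 or 20% below it, its 95% interval left out 1 and its mean was at least 20 normalized counts. The interval covers counting error only, and a difference between any pair of cultures also enters the ratio. In RNA of whole cultures, a lower level per cell and fewer cells expressing a gene cannot be told apart. Of 34 genes past the filter 1 was called higher (2.94%) and 0 lower, beside 3.98% and 2.3% of all 13292 genes. That background was 3.22% and 3.1% when libraries were scaled by total reads in place of the authors' size factors. By the interval alone 38.2% of the set lay above 1 and 23.5% below, against 16.8% and 11.3% of all genes. Intervals narrow as counts rise, and among the 5446 genes averaging at least 1000 the shares were 25.3% and 16.2%. Of the 26 genes of the set that are this abundant, 11 lay above, 7 below and 8 within counting error. Under scaling by total reads the set had 10 genes above and 11 below, so its balance turned with the scaling, as did that of all genes, with 11.9% above and 16.7% below.

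The enzymes moved by little and in both directions in the knockdown. Of 17 enzymes, 7 were higher beyond counting error (41.2%, against 16.8% of all genes), 4 lower (23.5%, against 11.3%) and 6 within it. Of the 16 enzymes averaging at least 1000, 7 were higher and 4 lower, and over all genes that abundant the shares were 25.3% and 16.2%. Of the 17 enzymes 0 were called, beside 3.98% of all genes called higher and 2.3% lower. The median log2 ratio was -0.02 beside 0.01 for all genes. GAPDH had 73002 normalized counts in the knockdown and 63326 in its control, 1.15-fold higher (1.14 to 1.17). ENO1 had 42045 in the knockdown and 37891 in its control, and PKM had 45641 in the knockdown and 41037 in its control, both 1.11-fold higher. PFKP, TPI1 and LDHB were also higher, by 1.06 to 1.09-fold. Apart from PFKP and TPI1, the triose phosphate isomerase, the higher enzymes act at GAPDH or at later steps. LDHA, with 1.02-fold, passed the interval only with the authors' size factors and was at 0.997 (0.978 to 1.02) under total reads. The 4 lower enzymes belong to the first 3 steps. HK1 had 7472 normalized counts in the knockdown and 7920 in its control, 1.06-fold lower. HK2, the inducible hexokinase, had 1643 in the knockdown and 1817 in its control, 1.11-fold lower (1.03 to 1.18). The isomerase GPI had 4872 in the knockdown against 5110 in its control, and PFKL had 2502 in the knockdown against 2781 in its control, 1.11-fold lower. PFKM, ALDOA, PGK1, PGAM1 and ENO2 were within counting error, with ratios of 0.970 to 1.003, although the intervals of ALDOA and ENO2 lay below 1 under total reads. ALDOC, at 66.6 normalized counts in the knockdown and 82.5 in its control, had a ratio of 0.807 with an interval of 0.576 to 1.13, too wide to give a direction at this depth.

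Transport and regulation genes were mostly higher in the knockdown, by up to 1.16-fold. SLC16A3, the lactate exporter of glycolytic cells, had 9273 normalized counts in the knockdown and 8005 in its control, 1.16-fold higher (1.12 to 1.19). SLC2A1 had 7214 in the knockdown and 6752 in its control, 1.07-fold higher (1.03 to 1.1). SLC2A3 had 1016 in the knockdown against 918 in its control, 1.11-fold (1.01 to 1.21). PFKFB3, which makes the allosteric activator of phosphofructokinase, had 1728 in the knockdown against 1581 in its control, 1.09-fold (1.02 to 1.17). The intervals of SLC2A3 and PFKFB3 took in 1 under scaling by total reads. PDK1, the kinase that shuts off pyruvate dehydrogenase, went the other way, with 545 normalized counts in the knockdown and 652 in its control, 1.20-fold lower (1.07 to 1.34). PFKFB4 was within counting error at 1.03 (0.891 to 1.19).

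CA12 was the gene called in the knockdown. It had 663 normalized counts in the knockdown and 442 in its control, 1.5-fold higher (1.33 to 1.70), and its FPKM were 5.40 in the knockdown and 3.67 in its control. The gene lies on chromosome 15, from 63321378 to 63382161 on the minus strand of GRCh38 in GENCODE release 29. In the authors' deposited table it had a p-value of 0.000471 and an adjusted p-value of 0.136, from single libraries. That table gave 0 genes of the set an adjusted p-value under 0.05 in this line, and 50 of all genes. CA9 rested on 4 reads in the knockdown and 3 in its control, which gives a ratio of 1.32 with an interval of 0.223 to 8.99.

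HIF1A and HIF targets gave no common direction in the knockdown, with a median log2 ratio of 0.01. Of 11 past the filter, 2 were higher beyond counting error (18.2%, against 16.8% of all genes), 3 lower (27.3%, against 11.3%) and 6 within it. HIF1A had 12395 normalized counts in the knockdown and 11154 in its control, 1.11-fold higher (1.08 to 1.14). Both mitophagy receptors were lower. BNIP3L had 2416 in the knockdown and 2791 in its control, 1.16-fold lower (1.09 to 1.22), and BNIP3 had 1531 in the knockdown against 1673 in its control, 1.09-fold lower (1.02 to 1.17). NDRG1 had 1659 in the knockdown against 1851 in its control, 1.12-fold lower (1.04 to 1.19). VEGFA, ADM, P4HA1, EGLN1 and EGLN3 were within counting error, at ratios of 0.949 to 1.19, though EGLN1 lay below 1 under total reads, at 0.928 (0.865 to 0.995). ANKRD37, an ankyrin repeat protein known as a HIF-1 target, had 15.9 normalized counts in the knockdown and 29.2 in its control, which gives 0.545 (0.276 to 1.04). Its FPKM were 0.463 in the knockdown and 0.474 in its control, so counts and FPKM do not give the same picture, and its exons overlap those of UFSP2 on the other strand.

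**Figure D3:**
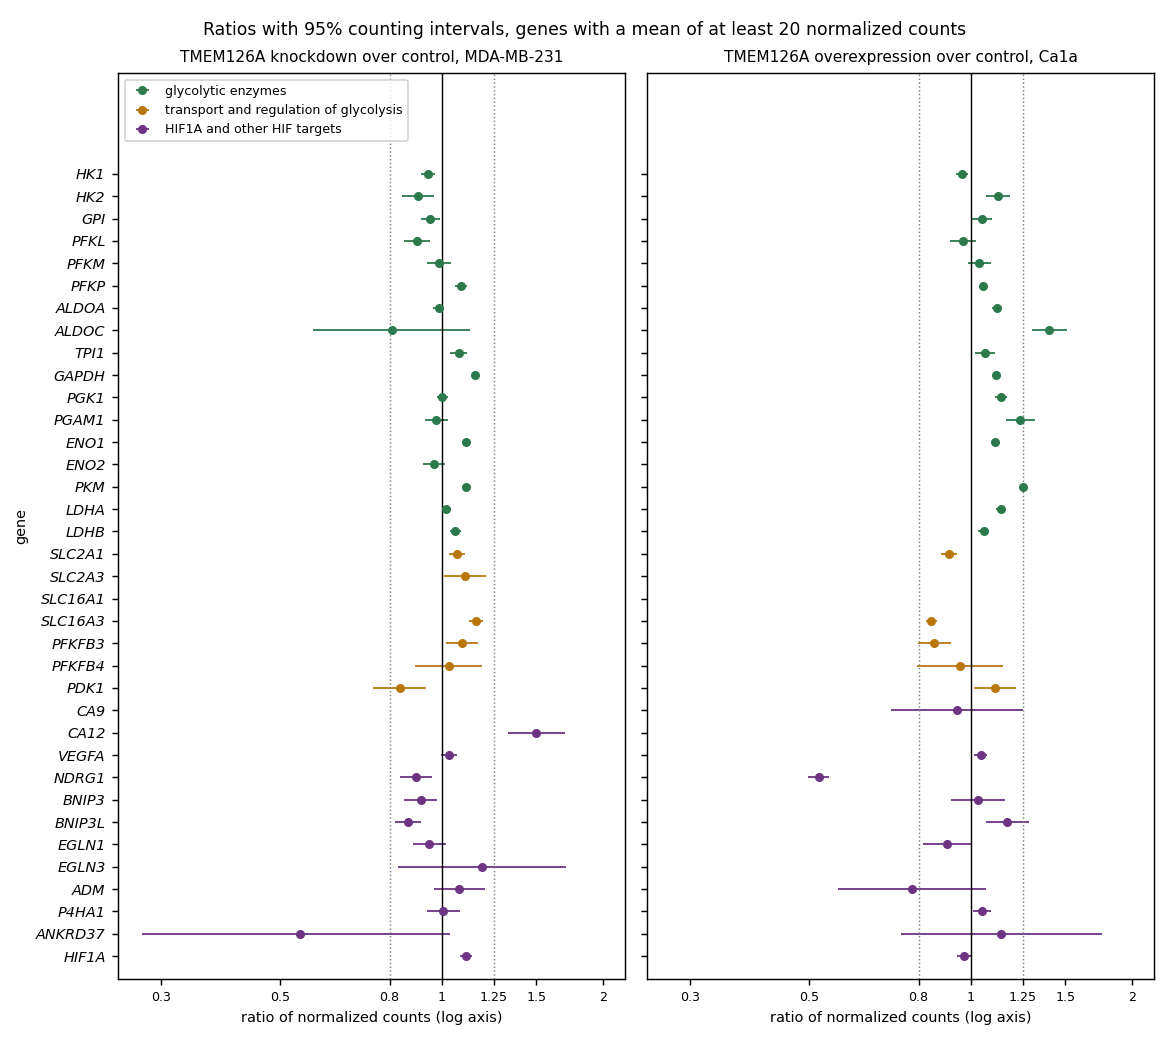
Ratio of normalized counts with its 95% counting interval for each gene averaging at least 20 normalized counts (left, TMEM126A knockdown over control in MDA-MB-231; right, TMEM126A overexpression over control in Ca1a), on a log axis, with dotted lines 25% above and 20% below 1. Most points lie between the dotted lines, CA12 lies to the right at 1.5 in the knockdown, and NDRG1 lies to the left at 0.521 with overexpression.

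Overexpression of TMEM126A in Ca1a went with enzymes that were mostly slightly higher and with lower NDRG1. Of 31 genes past the filter 2 were called higher (6.45%) and 1 lower (3.23%), beside 4.22% and 4.21% of all 12111 genes. By the interval alone 17 lay above 1 (54.8%) and 5 below (16.1%), against 18.1% and 16.2% of all genes. Among the 4831 genes averaging at least 1000 the shares were 26.2% and 23.7%, and of the 23 genes of the set in that range 15 lay above, 5 below and 3 within counting error. Of 16 enzymes 13 were higher beyond counting error, 1 lower and 2 within it, with a median log2 ratio of 0.15 beside 0.01 for all genes. TMM scaling (trimmed mean of M-values) left 12 of the 13, with GPI at 1.04 (0.997 to 1.09).

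The enzymes of the later steps were higher together in the overexpression library. PKM had 30149 counts with overexpression and 24065 in the control, a log2 ratio of 0.33 (interval of the ratio 1.23 to 1.27), and its FPKM were 268 with overexpression and 209 in the control. PKM lies on chromosome 15, from 72199029 to 72231822 on the minus strand. Its call sits at the threshold and was lost under scaling by total reads or TMM. PGAM1, the phosphoglycerate mutase, had 2362 counts with overexpression and 1907 in the control, 1.24-fold higher (1.17 to 1.32) and just short of a call. PGK1 had 11623 with overexpression against 10205 in the control, 1.14-fold (1.11 to 1.17), and LDHA had 19842 with overexpression against 17436 in the control, also 1.14-fold (1.12 to 1.16). GAPDH had 91279 with overexpression against 81725 in the control and ENO1 66210 with overexpression against 59684 in the control, 1.12-fold and 1.11-fold higher. ALDOC was the enzyme furthest from 1, with 1686 counts with overexpression and 1202 in the control, 1.40-fold higher (1.30 to 1.51). It lies on chromosome 17, from 28573115 to 28577264 on the minus strand, and its exons overlap a gene on the other strand. ALDOA had 24683 with overexpression against 22071 in the control, 1.12-fold (1.1 to 1.14). TPI1 and LDHB, at 1.07-fold and 1.06-fold, completed the enzymes that were higher from aldolase onward.

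At the entry of the pathway the enzymes lay on both sides of 1. HK2 had 3233 counts with overexpression and 2873 in the control, 1.13-fold higher (1.07 to 1.18). HK1 had 11658 with overexpression against 12112 in the control, 1.04-fold lower (1.01 to 1.07), the single enzyme that was lower beyond counting error. PFKP had 31173 with overexpression against 29517 in the control, 1.06-fold higher (1.04 to 1.07). GPI had 4017 with overexpression against 3827 in the control, 1.05-fold higher. PFKL, with 2548 with overexpression against 2629 in the control, and PFKM, with 3247 with overexpression against 3131 in the control, were within counting error. ENO2 had 12 reads in each Ca1a library and stayed under the filter.

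Transporters and PFKFB3 lay on the other side from the enzymes with overexpression. SLC16A3 had 13263 counts with overexpression and 15704 in the control, 1.18-fold lower (1.16 to 1.21). PFKFB3 had 1423 with overexpression against 1662 in the control, 1.17-fold lower (1.09 to 1.255). SLC2A1 had 5846 with overexpression against 6416 in the control, 1.1-fold lower (1.06 to 1.14). PDK1 was higher, with 1034 counts with overexpression against 932 in the control, 1.11-fold (1.01 to 1.21). PFKFB4 was within counting error at 0.955 (0.795 to 1.15), and the median log2 ratio of the 5 genes past the filter was -0.13. SLC2A3 had 1 read with overexpression and 0 in the control, and SLC16A1, the widespread lactate transporter, was listed at 0 in all 4 libraries.

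NDRG1 was the HIF target that stood out with overexpression. It had 3025 counts with overexpression and 5807 in the control, 1.92-fold lower (1.84 to 2.01), and its FPKM were 22.9 with overexpression and 43.9 in the control. In the authors' deposited table its adjusted p-value was 8.38e-07, again from single libraries, and it was the 1 gene of the set under 0.05 of 24 among all genes. The other HIF targets did not share this difference. BNIP3L had 1030 counts with overexpression and 880 in the control, 1.17-fold higher (1.07 to 1.28). P4HA1, with 5328 with overexpression against 5081 in the control, and VEGFA, with 11358 with overexpression against 10879 in the control, were 1.05-fold and 1.04-fold higher. By FPKM P4HA1 lay on the other side, at 43.2 with overexpression and 44.7 in the control. ADM had 74 with overexpression against 95 in the control, giving 0.779 (0.567 to 1.07), and CA9 had 101 with overexpression against 107 in the control, giving 0.944 (0.712 to 1.251), neither beyond counting error. HIF1A had 8669 with overexpression against 8901 in the control, giving 0.974 (0.945 to 1.003). EGLN1, with 704 with overexpression against 780 in the control, reached 0.903 (0.814 to 1.001). The upper bounds of HIF1A and EGLN1 fell below 1 under TMM, so their side depends on the scaling. BNIP3 and ANKRD37 were within counting error, at ratios of 1.03 and 1.14. By FPKM ANKRD37 lay further apart, at 1.47 with overexpression and 1.02 in the control. CA12, with 15 reads with overexpression and 12 in the control, and EGLN3, with 2 and 3 reads in overexpression and control, stayed under the filter.

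The knockdown and the overexpression used different lines and share no library, so the values of a gene can be set side by side. Of the 30 genes past the filter in both lines, 7 were higher beyond counting error in both comparisons (23.3%, against 4.32% of all 11349 such genes). These were PFKP, TPI1, GAPDH, ENO1, PKM, LDHA and LDHB, all enzymes, and LDHA was among them under the authors' scaling alone. For these genes the ratio was above 1 with less TMEM126A in MDA-MB-231 and with more TMEM126A in Ca1a. SLC2A1, SLC16A3 and PFKFB3 were higher in the knockdown and lower with overexpression (10%, against 3.37%), PFKFB3 again under the authors' scaling and TMM. HK2, GPI, PDK1 and BNIP3L were lower in the knockdown and higher with overexpression (13.3%, against 2.14%), GPI not under TMM. HK1 and NDRG1 were lower in both (6.67%, against 2.79%), and 5 genes were within counting error in both. The backgrounds here cover genes of every abundance, and the set is more abundant than most genes. The genes with opposite sides in the 2 lines had ratios of at most 1.2-fold in either line, and none of them was called.

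**Figure D4:**
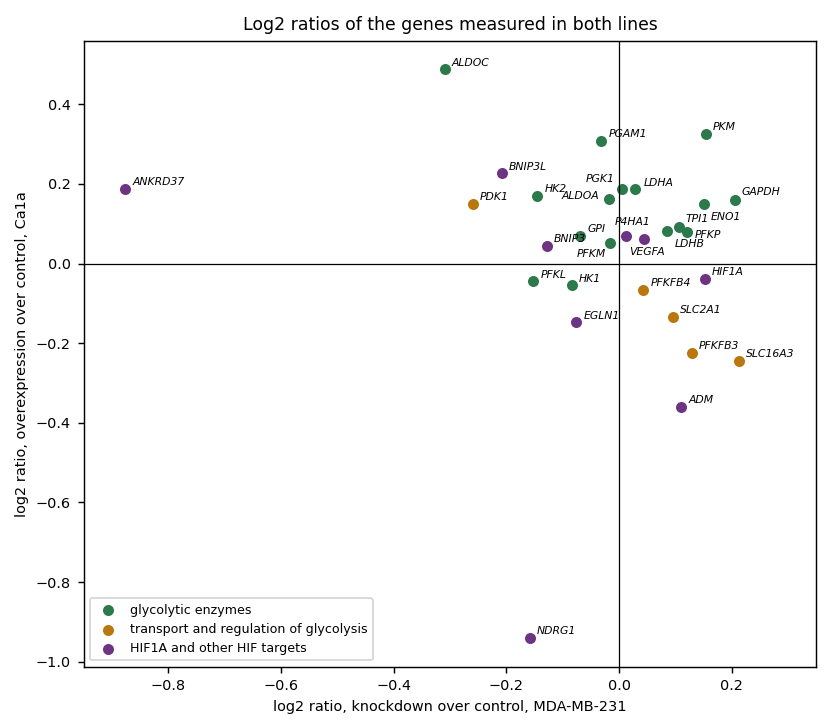
Log2 ratio of TMEM126A overexpression over control in Ca1a (vertical axis) against log2 ratio of TMEM126A knockdown over control in MDA-MB-231 (horizontal axis) for the 30 genes averaging at least 20 normalized counts in both lines, 1 point per gene, coloured by role. Enzymes (green) lie mostly above the horizontal line at 0, SLC2A1, SLC16A3 and PFKFB3 (orange) lie at the lower right, and NDRG1 lies lowest at -0.94.

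A further 7 lists of neighbouring pathways held 149 matched genes. The lists were chosen with earlier results of these data known, so an excess of a list over all genes may reflect that choice. The first, pyruvate entry into mitochondria, holds the pyruvate carriers and pyruvate dehydrogenase subunits and kinases. Of its 15 genes, 10 were higher beyond counting error with overexpression (66.7%, against 18.1% of all genes) and 1 lower (6.67%, against 16.2%). Of the 15, 3 were called higher (20%, against 4.22% of all genes), and the median log2 ratio was 0.14. For the knockdown 4 were higher (26.7%, against 16.8% of all genes) and 1 lower (6.67%, against 11.3%), with a median of 0.00. PDHB, a subunit of pyruvate dehydrogenase, had 2209 counts with overexpression and 1731 in the control, 1.28-fold higher (1.20 to 1.36). PDK4, another pyruvate dehydrogenase kinase, had 259 normalized counts in the knockdown and 329 in its control, 1.27-fold lower (1.07 to 1.5), and 545 counts with overexpression against 425 in the control, 1.28-fold higher (1.13 to 1.46). PDK3 had 542 counts with overexpression and 429 in the control, 1.26-fold higher (1.11 to 1.44).

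Other glycolysis and gluconeogenesis genes held 18 genes past the filter in the knockdown comparison. Of these 2 were higher beyond counting error (11.1%, against 16.8% of all genes) and 5 lower (27.8%, against 11.3%). Of 16 with overexpression, 2 were higher (12.5%, against 18.1%) and 2 lower (12.5%, against 16.2%). None was called in either line. Over all genes 3.98% were called higher and 2.3% lower in the knockdown, and 4.22% and 4.21% with overexpression. The pentose phosphate pathway, which draws glucose 6-phosphate off for NADPH and ribose, had 0 called genes of 10 in each line. In glycogen metabolism PPP1R3C, which targets a phosphatase to glycogen, had 288 normalized counts in the knockdown and 183 in its control, 1.57-fold higher (1.30 to 1.90), and 0 of 10 genes were called with overexpression. Among other hexose and monocarboxylate transporters SLC2A12 had 170 normalized counts in the knockdown and 105 in its control, 1.62-fold higher (1.27 to 2.09), and 40 counts with overexpression against 15 in the control, 2.67-fold higher (1.44 to 5.20). SLC2A9 had 62 counts with overexpression and 87 in the control, 1.40-fold lower. Of the HIF pathway regulators RBX1, a subunit of the ubiquitin ligase that acts on HIF1A, had 411 counts with overexpression and 297 in the control, 1.38-fold higher (1.19 to 1.61). HIF1A-AS2, an antisense transcript of HIF1A, had 65.6 normalized counts in the knockdown and 91.6 in its control, 1.40-fold lower (1.01 to 1.95).

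Another 44 HIF target genes gave more calls than the set itself. This list too was chosen with earlier results of these data known, so its shares describe the list only. Of 40 past the filter in the knockdown 1 was called higher (2.5%, against 3.98% of all genes) and 6 lower (15%, against 2.3%). By the interval alone 15 were lower (37.5%, against 11.3% of all genes) and 6 higher (15%, against 16.8%). With overexpression 3 of 37 were called higher (8.11%, against 4.22% of all genes) and 4 lower (10.8%, against 4.21%). ANGPTL4, a secreted inhibitor of lipoprotein lipase, had 566 normalized counts in the knockdown and 1254 in its control, 2.21-fold lower (2.0 to 2.45). With overexpression it had 1311 counts against 1921 in the control, 1.47-fold lower (1.37 to 1.57), so it was lower in both comparisons. PLIN2, a lipid droplet coat protein, had 2827 normalized counts in the knockdown and 3943 in its control, 1.39-fold lower (1.33 to 1.46). TMEM45A, a transmembrane protein, had 101 normalized counts in the knockdown and 145 in its control, 1.43-fold lower (1.1 to 1.86), and 85 counts with overexpression against 43 in the control, 1.98-fold higher (1.35 to 2.92). PGF, a relative of VEGFA, had 119 normalized counts in the knockdown and 84.5 in its control, 1.41-fold higher (1.06 to 1.89). EDN1, the vasoconstrictor endothelin, had 52 counts with overexpression and 32 in the control, 1.62-fold higher (1.03 to 2.61), and BHLHE41, a transcriptional repressor, had 217 with overexpression against 146 in the control, 1.49-fold higher (1.20 to 1.85).

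Counts of several genes are uncertain because other annotated copies or genes share their sequence. Pseudogene rows held 44.1% to 47.2% of the reads of TPI1 and its pseudogenes, and 20.5% to 23.2% for BNIP3. For LDHA the share was 3.16% to 4.30%, and for GAPDH, with 42 pseudogene rows, 0.520% to 0.648%. Exons of 9 of the 36 genes overlap another gene on the same strand in the annotation and those of a further 14 only on the other strand, and the sources used here give no strand setting for the counting.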

How the data were processed

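RNA-seq of total RNA (TRIzol, Illumina libraries, per the labels' protocols) covered 4 libraries, 1 per group. The submitters' processing notes name the builds GRCh38.p5 and hg38 and, as tools, HISAT2, Cufflinks, HTSeq and DESeq, with versions and order not given in the sources used here. Per the file headers, the authors deposited DESeq base means: whole read counts per gene for Ca1a, and for MDA-MB-231 a signal, counts divided by size factors, whose values were all whole multiples of one step within a tolerance of 1e-06 and were turned back into reads. The authors' log2 fold changes, p-values and adjusted p-values were copied from the deposited tables, and FPKM of all libraries come from a table the authors deposited, with a denominator not given in the sources used here.

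Each ratio of normalized counts has a 95% interval from the exact conditional binomial (Clopper-Pearson) method. No source used here names molecular identifiers, so reads are not taken as independent molecules, and intervals and the limit of 3 reads for a count of 0 cover counting error only. With 1 library per group there was no test. A call needed a ratio 25% above or 20% below 1, an interval without 1 and a mean of at least 20. The control comparison used log2(FPKM + 0.1), which understates changes of low genes. Alternatives were other scalings, filters, thresholds and pseudocounts, FPKM in place of counts, and, added after seeing the data, reads over the library total in place of FPKM. The genes and lists were chosen with earlier results of these data known. Named from the further lists were called genes, up to 4 per list and comparison with the largest log2 ratios. Values of 2 further genes are not reported here. The calling steps were tested on simulated data. Promoters come from RefSeq (GRCh38.p14) and gene positions from GENCODE release 29, matched by Entrez ID. TMM factors came from edgeR 4.0.16 in R 4.3.3, intervals from scipy 1.17.1 and plots from matplotlib 3.10.9, with tables handled in pandas 2.3.3 and numpy 2.4.6 under Python 3.11.15.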

Additional observations from a re-analysis of the deposited data

How the results depend on the processing

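Each result was counted once under each alternative setting, and a count was taken as the same within 1.5-fold. So counted, 100 stayed within the limits set for a change and 16 moved, with 0 reversed among called genes. Scaling by the median ratio over genes gave the same shares of calls as the authors' size factors. Its results could therefore not move, though they are among the 100. No paired analysis was possible because each group held 1 library, and no library could be left out for the same reason. In the knockdown, a threshold of 1.1-fold gave 7 genes called higher and 5 lower, and leaving out the counting interval gave 1 lower (ANKRD37), against 1 and 0. With overexpression, 2 called higher became 1 under total reads or TMM, 3 with FPKM (ANKRD37 added), 0 at 1.5-fold and 11 at 1.1-fold. The 1 called lower became 2 with FPKM or without the interval (ADM added) and 3 at 1.1-fold. Between the controls, 5 called lower became 10 at 1.5-fold. The median log2 ratio of HIF1A and HIF targets, 0.30, was 0.67 without a filter and at 5 FPKM, and 0.73 by reads over the library total. That of the enzymes, -0.15, was -0.0855 with FPKM divided by the library sum and -0.0315 by reads over the library total, and the cause was not tested. No scaling moved the median of all genes by more than 0.09. Depth limits ALDOC, ANKRD37, EGLN3 and CA9 in MDA-MB-231 and ADM, CA9 and CA12 in Ca1a, where intervals span more than the threshold.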

Other observations

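Some genes of galactose use and of gluconeogenesis, held in a list of neighbouring pathways, differed between the lines more than between conditions, and were singled out after their values were seen. GALM, the galactose mutarotase, had 4.2 FPKM in the knockdown and 4.21 in its control, and was listed at 0 in both Ca1a libraries. GALK1, the galactokinase, had 30.1 FPKM in the knockdown and 31.1 in its control, and 4.88 with overexpression and 4.01 in its control. GALT, the galactose uridylyltransferase, had 16.9 and 15.4 FPKM in knockdown and control of MDA-MB-231, and 7.54 and 8.51 in overexpression and control of Ca1a. FBP1, the fructose bisphosphatase of gluconeogenesis, had 11.9 FPKM in the knockdown and 11.3 in its control and was listed at 0 in both Ca1a libraries. PCK2, the mitochondrial phosphoenolpyruvate carboxykinase, had 9.73 and 11.97 FPKM in knockdown and control of MDA-MB-231, and 39.8 and 42.8 in overexpression and control of Ca1a. Line and medium cannot be told apart here.

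Some HIF target genes outside the set, likewise singled out after their values were seen, lay far apart between the lines. Line, medium and vector cannot be told apart for these genes either, and a part of HIF in the differences was not tested. DDIT4, an inhibitor of mTOR signalling, had 44.2 FPKM in the knockdown and 56.6 in its control, and 2926 with overexpression and 2876 in its control, 50.8-fold higher in the Ca1a control than in the MDA-MB-231 control. The secreted stanniocalcins were split, with STC1 at 29.7 and 30.1 FPKM in knockdown and control of MDA-MB-231 and 0.09997 and 0.0282 in overexpression and control of Ca1a, and STC2 at 0.955 and 0.760 FPKM in MDA-MB-231 (knockdown and control) and 63.2 and 57.3 in Ca1a (overexpression and control). EGLN2, a prolyl hydroxylase of HIF, had at most 1 read in any count table but 36.8 and 38.4 FPKM in knockdown and control of MDA-MB-231 and 18.5 and 21.2 in overexpression and control of Ca1a, so counts and FPKM of this gene cannot be used together.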
